A study of Homo sapiens with 6 samples.

Results

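The regions described here are the most strongly LaminB1-enriched in each of 4 deposited region lists, 2 from DKO and 2 from WT HCT116 cells. In each list, regions on chromosomes 1 to 22 that were at least 20 kb wide were ranked by log2 of LaminB1 reads over control reads, taken from the raw counts, and the top 5% were kept. This gave 475 of 9494 regions in DKO 1 and 485 of 9694 in DKO 2, against 423 of 8447 in WT 1 and 387 of 7722 in WT 2, or 1770 of 35357 in all. They are called top regions below. No region was left out for a control count of 0.

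LaminB1 was mapped by CUT&RUN, in which an antibody directs a nuclease to cut and release the DNA around its target, in HCT116, a human colorectal carcinoma line. DKO cells carried a mini auxin-inducible degron (mAID) on both TOP2A alleles and lacked TOP2B (TOP2B -/-, made by CRISPR/Cas9), and received 500 μM auxin for 8 h to degrade TOP2A. WT cells, labelled wildtype, carried the same TOP2A degron with TOP2B intact, and their deposited lists are marked as without auxin. All cells were held in G1 with 2 μM palbociclib for 28 h. The 2 groups therefore differ in TOP2B, in TOP2A and in auxin together, and the labels do not say whether the TOP2B -/- line is 1 clone. TOP2A and TOP2B are the type II topoisomerases, which pass one DNA duplex through another to relieve supercoils and tangles. Nothing in the labels says that replicates were separate cultures, so p-values measure only the spread between these libraries, which may be technical.

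LaminB1 is a protein of the nuclear lamina, the meshwork under the inner nuclear membrane. Long stretches of chromatin that touch it, the lamina-associated domains, are typically poor in genes, rich in A and T, late replicating and weakly transcribed, and many hold genes used only in other tissues, such as olfactory receptors and neuronal adhesion genes. TOP2A, TOP2B and LMNB1 lay outside the LaminB1 regions of all 4 lists (0% of each gene body), so the lists hold no check of the knockout or the degradation. Of 20 colon epithelial genes, 0 were touched by a top region and 1 lay at least 50% inside regions, so the line could not be checked from them either.

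The promoters of 6 of the 9 genes that lay with their whole body in top regions of all 4 lists are given as examples. Region sequence was not analysed, so they do not describe the DNA of the top regions as a whole. The promoters were taken in order of the mean ratio over the gene, with at most 1 from a shared stretch. Only RefSeq promoters that themselves lay in top regions of all 4 lists were used. Each is 300 bases, 250 before and 50 after a start of the gene, in the gene's direction, from RefSeq on GRCh38.p14. The SPINK9 start used here, at base 148335559, lies inside the annotated gene body, which begins at base 148321305. CG dinucleotides are in capitals. The genes code for MARCOL, a collagen-like protein, the serine protease inhibitors SPINK7 and SPINK9, the RING finger protein RNF148, the bitter taste receptor TAS2R16 and the predicted protein LOC107986012.
MARCOL: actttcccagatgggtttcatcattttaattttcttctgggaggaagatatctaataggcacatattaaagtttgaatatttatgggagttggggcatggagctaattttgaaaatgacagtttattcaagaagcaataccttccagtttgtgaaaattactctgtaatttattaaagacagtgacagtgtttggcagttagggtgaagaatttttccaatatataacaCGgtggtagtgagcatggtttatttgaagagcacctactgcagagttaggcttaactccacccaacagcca
SPINK7: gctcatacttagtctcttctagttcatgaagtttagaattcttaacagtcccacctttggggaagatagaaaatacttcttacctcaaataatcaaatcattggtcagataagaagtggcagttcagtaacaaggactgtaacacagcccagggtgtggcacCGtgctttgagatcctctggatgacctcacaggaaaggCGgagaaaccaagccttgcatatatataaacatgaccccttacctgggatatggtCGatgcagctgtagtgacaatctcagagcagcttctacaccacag
SPINK9: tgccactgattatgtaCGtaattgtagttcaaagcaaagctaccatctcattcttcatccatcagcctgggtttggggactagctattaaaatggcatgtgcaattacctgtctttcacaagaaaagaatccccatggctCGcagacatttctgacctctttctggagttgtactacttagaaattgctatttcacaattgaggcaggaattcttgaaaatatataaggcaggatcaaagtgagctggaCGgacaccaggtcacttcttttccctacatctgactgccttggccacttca
RNF148: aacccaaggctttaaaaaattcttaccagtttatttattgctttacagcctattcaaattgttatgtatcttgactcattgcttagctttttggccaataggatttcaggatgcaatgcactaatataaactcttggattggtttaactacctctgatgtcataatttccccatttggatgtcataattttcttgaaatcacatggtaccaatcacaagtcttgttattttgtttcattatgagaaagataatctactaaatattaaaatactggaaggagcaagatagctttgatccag
TAS2R16: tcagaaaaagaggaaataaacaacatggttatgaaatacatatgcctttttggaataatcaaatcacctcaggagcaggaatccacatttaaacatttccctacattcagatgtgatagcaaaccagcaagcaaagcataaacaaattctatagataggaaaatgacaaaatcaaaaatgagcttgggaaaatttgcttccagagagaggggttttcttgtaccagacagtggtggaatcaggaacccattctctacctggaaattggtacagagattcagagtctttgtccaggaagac
LOC107986012: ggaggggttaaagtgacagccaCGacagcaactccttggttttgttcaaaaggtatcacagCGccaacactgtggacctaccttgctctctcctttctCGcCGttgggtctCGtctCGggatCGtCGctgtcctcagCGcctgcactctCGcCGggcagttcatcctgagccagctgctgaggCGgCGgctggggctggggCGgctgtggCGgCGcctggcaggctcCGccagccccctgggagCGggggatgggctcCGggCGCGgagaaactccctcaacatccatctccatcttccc
The sequences lie, in the same order, at chr5:148238275-148238574 (+), chr5:148312173-148312472 (+), chr5:148335309-148335608 (+), chr7:122702873-122703172 (-), chr7:122995651-122995950 (-) and chr3:28576278-28576577 (-). The first 5 hold 1, 3, 3, 0 and 0 CG dinucleotides and 36.7, 44, 42.3, 32 and 37.7% G and C. LOC107986012 stands apart with 21 CG dinucleotides and 64.3% G and C. Over the 15101 matched promoters of protein-coding genes the median was 22 CG dinucleotides and 63% G and C. The letters TATAAA, searched on both strands, occur in the SPINK7 and RNF148 promoters and in 9.71% of all 15101. TAS2R16 lay in regions with a log2 LaminB1 over control ratio of 0.94 in DKO 1 and 0.96 in DKO 2, against 1.18 in WT 1 and 1.24 in WT 2. MARCOL lay in regions at 1.19 in DKO 1 and 1.00 in DKO 2, against 1.22 in WT 1 and 1.24 in WT 2. Ratios are comparable only within a list, because the groups differ in control library and depth.

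The top regions were chosen by this measured ratio, so their ratios are a description. The lowest ratio taken was 0.84 in DKO 1 and 0.84 in DKO 2, against 1.11 in WT 1 and 1.20 in WT 2. The median of the top regions was 0.89 and 0.89 in the DKO lists and 1.15 and 1.25 in the WT lists, and that of the other regions of at least 20 kb was 0.56 and 0.56 in the DKO lists and 0.80 and 0.91 in the WT lists. In DKO 1 the top of the list was a 32 kb region around MARCOL (473 LaminB1 and 208 control reads, ratio 1.19), followed by a gene-free region near SPCS3 (1.17) and a region in FGF12 (1.15). FGF12 codes for an intracellular fibroblast growth factor homologue that binds sodium channels. In DKO 2 the first 3 regions held no protein-coding gene and lay nearest to SHPRH (1.18), CDH20 (1.16) and PRR16 (1.16). In WT 1 they were a gene-free region near SYNCRIP (1.48), a region in PARD3B (1.45), which codes for a cell polarity protein, and a region in ERBB4 (1.45), a receptor tyrosine kinase gene. In WT 2 they were a region in ERBB4 (1.51), a region in ANK3 (1.5), which codes for ankyrin G, and a region at TYR (1.49), the tyrosinase gene of pigment cells.

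The threshold fell in a dense part of each list. In DKO 1 the last region taken, in GLRA3, had 1165 LaminB1 and 653 control reads, and the first left out, at MGAM, had 3816 and 2139 reads, and both had a ratio of 0.84. The last region taken and the first left out were at GPM6A and PLPPR1 in DKO 2 (0.84 each), at PLD5 and AGBL4 in WT 1 (1.11 each), and in WT 2 at PPP2R2B and near MECOM (1.20 each). One place further in stood regions at KCNH8 in DKO 1, near CYRIA in DKO 2, at DLG2 in WT 1 and near IKZF2 in WT 2, and one place further out stood regions at SCHIP1 in DKO 1, at MLIP in DKO 2, near POU3F2 in WT 1 and near BOD1L1 in WT 2. The counting error of a top region's ratio had a median of 0.09 log2 units in DKO 1 and 0.09 in DKO 2, against 0.10 in WT 1 and 0.11 in WT 2. With a 95% interval from counting error alone, 56 top regions in DKO 1 (11.8%) and 61 in DKO 2 (12.6%) stayed above the threshold. In WT 1 it was 20 (4.73%) and in WT 2 it was 21 (5.43%). The same interval reached the threshold for 31.6 and 30.8% of the other regions in the DKO lists and for 30.5 and 32.9% in the WT lists. Membership of most single top regions was thus not resolved at this depth, nor was that of these other regions.

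Reads inside regions came to 8150755 and 8350858 LaminB1 reads in the DKO lists and 7374312 and 7262987 in the WT lists; total library depth is not given in the files. The lowest control count of any top region was 128 and 116 reads in the DKO lists and 92 and 90 in the WT lists. Where a region kept its edges between replicates, its control count was the same number, in 61 of 61 regions in DKO and in 45 of 45 in WT, so the replicates of a group share 1 control library. Between the groups, the control library cannot be told apart from the line, the auxin or the genotype. Control reads in the top regions were 7.53 and 7.52 per kb (median) in the DKO lists and 5.77 and 5.78 in the WT lists. The other regions held 8.27 and 8.27 control reads per kb in the DKO lists and 6.42 and 6.47 in the WT lists. LaminB1 reads per kb in the top regions were 14 and 14.1 in the DKO lists and 13 and 13.9 in the WT lists, and in the other regions 12.1 and 12.2 in the DKO lists and 11.2 and 12.2 in the WT lists. The high ratio thus came with more LaminB1 reads and fewer control reads in every list.

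Top regions were wide. Their median width was 51 kb in DKO 1 and 48 kb in DKO 2, against 51 kb in WT 1 and 47 kb in WT 2, and the other regions had a median of 35, 35, 36 and 35 kb in the same lists. At least 100 kb was reached by 30.1 and 30.3% of top regions in the DKO lists and by 31.4 and 25.1% in the WT lists, and by 10.3 to 13.6% of the other regions. The widest top region measured 854 kb in DKO 1 and 1412 kb in DKO 2, against 688 kb in WT 1 and 624 kb in WT 2. Together the top regions covered 45.7 Mb in DKO 1 and 49.1 Mb in DKO 2, against 43.9 Mb in WT 1 and 32.8 Mb in WT 2. DKO exceeded WT by 9.07 Mb, with an exact two-sided permutation p of 0.333, the smallest that 2 against 2 libraries allow. The rule sets the number of top regions from the length of the list, at 475 and 485 in DKO against 423 and 387 in WT. The part of these numbers in the difference was not tested. The difference was 3.55 Mb without WT 2 and 14.6 Mb without WT 1.

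The top regions of one list lay mostly in regions of the other lists, and were more often top regions there within a group than between groups. Of the sequence of the DKO 1 top regions, 63.5% lay in top regions of DKO 2, and 59% in the other direction. Of the WT 1 top regions 45% lay in top regions of WT 2, and 60.2% in the other direction. Across groups, the DKO 1 top regions had 41.9% in WT 1 and 31.9% in WT 2, and those of DKO 2 had 38.9% in WT 1 and 28.4% in WT 2. Those of WT 1 had 43.7% in DKO 1 and 43.6% in DKO 2, and those of WT 2 had 44.4 and 42.5%. The mean was 56.9% ± 8.15 (SD, n = 4 shares) within groups and 39.4% ± 6.03 (SD, n = 8 shares) across them, a difference of 17.5 percentage points that was not tested. The replicates of a group share their control library, and the part of the sharing in this difference was not tested.

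**Figure D1:**
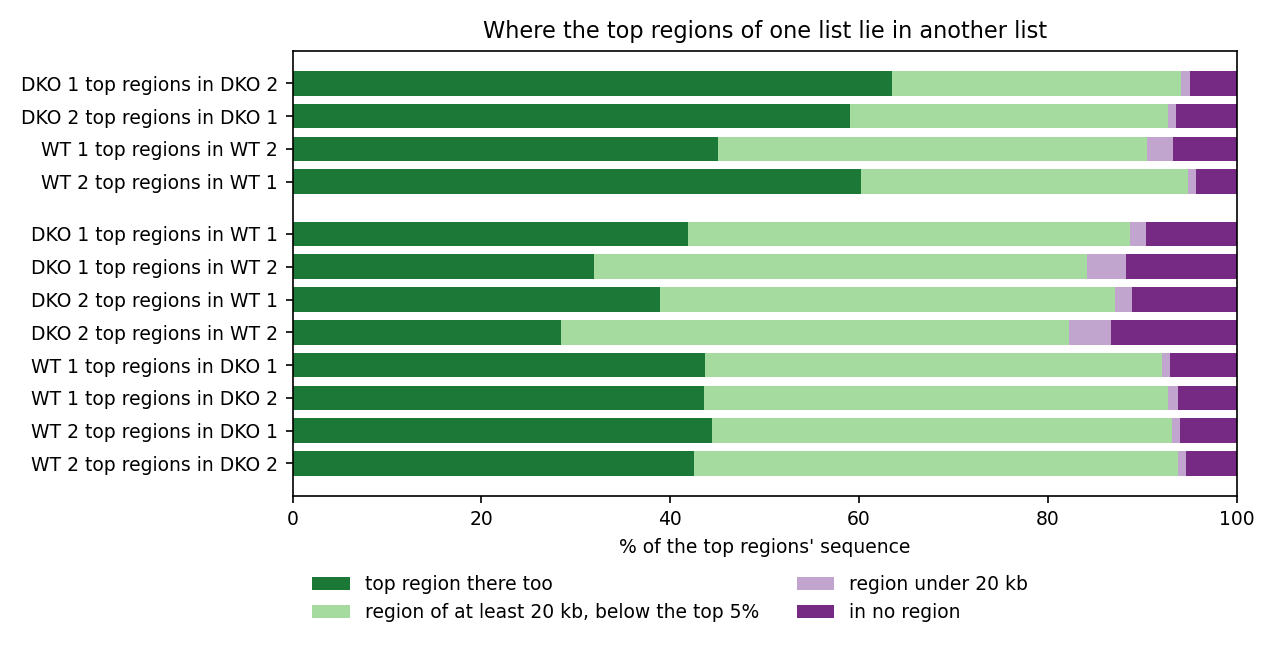
Share of the sequence of each list's top regions (horizontal axis, percent) that falls in top regions, in lower-ranked regions of at least 20 kb, in regions under 20 kb or in no region of another list, for the 4 pairings within a group (upper rows) and the 8 across groups (lower rows). Dark green, top in both lists, spans 45 to 63.5% within groups and 28.4 to 44.4% across them.

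What was not shared at the top was seldom lost from the lists. A mean of 5.61% of the top regions' sequence lay in no region of the other list within groups, and 8.8% across groups. For the other regions of at least 20 kb these shares were 21.1 and 26.2%. Where top-region sequence lay in a region of at least 20 kb of another list, the rank of that region was taken. Its median over the sequence, averaged over pairs, was the 96.3 percentile within groups and the 93.5 percentile across groups. For the sequence of other regions it was the 61 and 62 percentile. Of the 29 Mb that were top in both DKO lists, 3.04% lay outside all WT regions; of the 19.7 Mb that were top in both WT lists, 0.663% lay outside all DKO regions. With 1 list left out fewer lists had to agree, and these shares were larger. Leaving out a list of the other group cannot lower the share, and other causes were not tested. For DKO the shares were 5.84% without DKO 1, 4.66% without DKO 2, 9.14% without WT 1 and 6.68% without WT 2. For WT they were 2.66, 3.46, 2.07 and 2.42% in the same order. At least 10 kb from any region of the other group lay 0.993% of the DKO sequence and 0.208% of the WT sequence. Other regions of at least 20 kb differed in the same direction. By single pairs of lists, 27 to 32% of their DKO sequence lay in no WT region. Of their WT sequence, 20.5 to 25.6% lay in no DKO region. All regions on chromosomes 1 to 22 covered 610 and 622 Mb in the DKO lists and 594 and 549 Mb in the WT lists. The part of list size in the DKO and WT shares was not tested.

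Merged over the 4 lists, the top regions covered 95.5 Mb. Of this, 9.21 Mb (9.64%), in 129 stretches, was top in all 4 lists, 12 Mb in 3 lists, 11.9 Mb in both DKO lists alone and 6.5 Mb in both WT lists alone. A further 6.01 Mb was top in 1 list of each group, and 50 Mb (52.3%) in a single list. Of the DKO-only sequence 74.2% lay in regions of both WT lists, and of the WT-only sequence 89.7% lay in regions of both DKO lists.

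The longest stretch that was top in all 4 lists was a gene-free 491 kb at chr3:180099001-180590000 (hg38), 12.2 kb from TTC14. Its ratio was 0.98 in DKO 1 and 1.00 in DKO 2, against 1.19 in WT 1 and 1.27 in WT 2. Next came 287 kb in PARD3B (chr2:205382001-205669000), followed by 275 kb at the end of KCNK2 (chr1:215225001-215500000), which codes for a background potassium channel. A further 275 kb lay at CPS1 (chr2:210627001-210902000), the gene of the first enzyme of the urea cycle, with 1.07 and 1.02 in the DKO lists and 1.24 and 1.4 in the WT lists. The others of the 10 longest held ZCWPW2 and LOC107986012 (250 kb), CHSY3, a chondroitin synthase gene (204 kb), UNC80, a subunit of the NALCN sodium leak channel (195 kb), and NLGN1 in 2 stretches (198 and 193 kb). NLGN1 codes for neuroligin 1, a postsynaptic adhesion protein. The last of the 10 was gene-free, near ISOC1 (190 kb).

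The longest DKO-only stretches touched genes on 4 chromosomes and lay next to a gene on chromosome 5. The first, 437 kb at KCNK2 (chr1:214687001-215124000), had a ratio of 0.91 in DKO 1 and 0.87 in DKO 2, against 1.03 in WT 1 and 1.11 in WT 2, where it fell below the threshold. The second, 330 kb at FGF12 (chr3:191819001-192149000), had 0.87 and 0.95 in the DKO lists and 0.94 and 1.02 in the WT lists. The others lay at HHIP, a hedgehog-binding protein gene (284 kb, ending at base 144683000), in NKAIN2 (260 kb) and beside CHSY3 (242 kb). The bodies of KCNK2, FGF12 and HHIP began at bases 215005542, 192139390 and 144646156. Most of the sequence of the stretches at these genes thus held no protein-coding gene. All 5 DKO-only stretches were 79.8 to 100% inside regions of each WT list. The longest WT-only stretches mostly touched no protein-coding gene. The first, 377 kb at chr1:208269001-208646000 near PLXNA2, had 0.80 and 0.80 in the DKO lists and 1.17 and 1.27 in the WT lists. The others lay near HLX (305 kb), near PGR (268 kb), in TMEM232 (259 kb) and near PARD3B (221 kb), and all 5 were 90.8 to 100% inside regions of each DKO list.

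**Figure D2:**
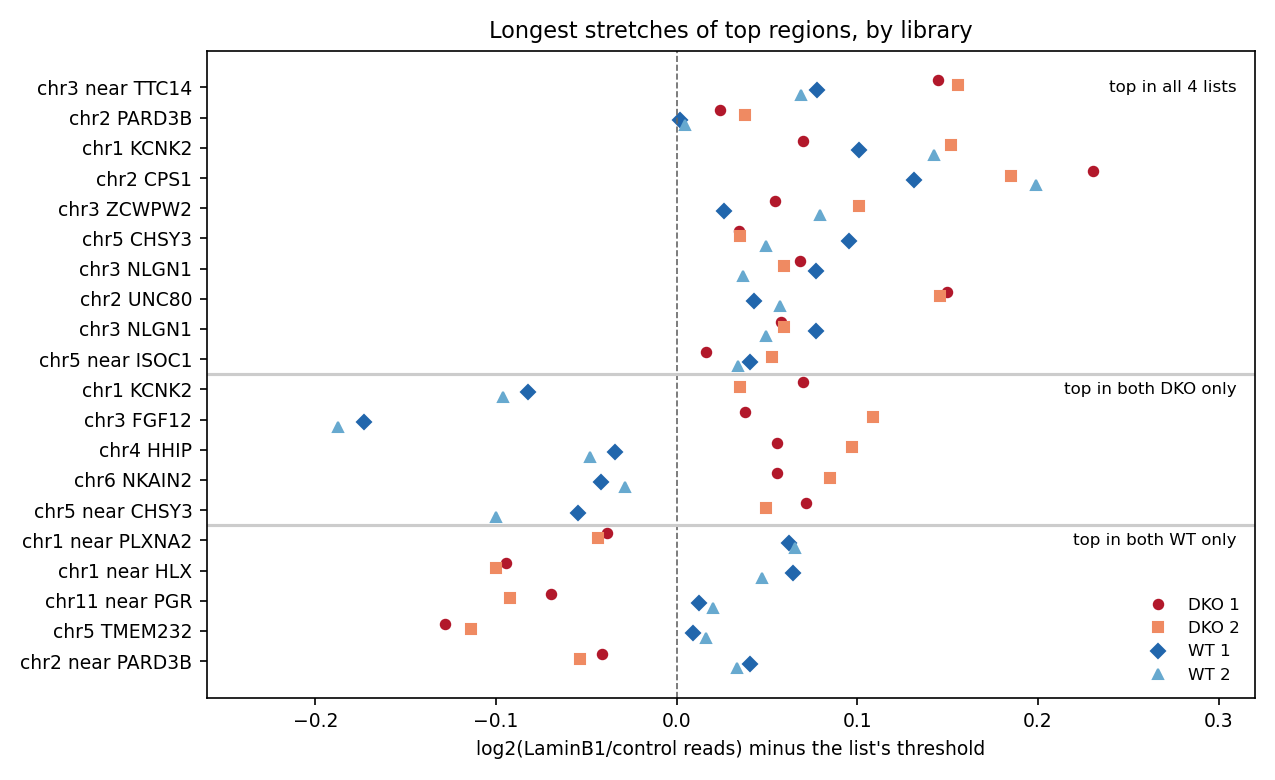
Log2 LaminB1 over control reads minus the list's own threshold (horizontal axis) for the longest stretches that were top in all 4 lists, in both DKO lists alone and in both WT lists alone, with 1 marker per library. By the rule, markers right of the dashed line are top regions; the WT markers of the DKO-only stretches and the DKO markers of the WT-only stretches lie within 0.2 log2 units to the left of it.

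To compare levels rather than ranks, the ratio was averaged over 4087 bins of 100 kb that regions covered to at least 50% in every list, centred on each list's median, and tested with limma. At an adjusted p under 0.05, 361 bins were higher and 264 lower in DKO, or 15.3% of all bins (8.83% higher and 6.46% lower). Of the 96 bins that were top in all 4 lists, 3 were higher and 2 lower. At an unadjusted p under 0.05 it was 14 higher and 4 lower, against 33.8% of all bins in both directions. Both DKO libraries lay above both WT libraries in 33 of these 96 bins and below them in 22, against 32.7% above and 30.5% below over all bins. Of the 96 bins that were top in both DKO lists alone, 53 were higher, and of the 63 that were top in both WT lists alone, 33 were lower. The rule used this ratio in the same libraries, so the counts over these sets of bins are a description and nothing is read from them. The number of bins called was 125 without DKO 1, 165 without DKO 2, 336 without WT 1 and 226 without WT 2. The replicates of a group share their control library and neighbouring bins can share a region, so these p-values are too small.

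The 5 bins called among those top in all 4 lists had small differences, given here with no test since the ratio also chose the bins. At chr2:204900001-205000000, in PARD3B, the centred ratio was 0.27 in DKO 1 and 0.21 in DKO 2, against 0.51 in WT 1 and 0.44 in WT 2, a log2 difference of -0.23. At chr7:122600001-122700000, which holds RNF133, another RING finger gene, the log2 difference was 0.13. The others were chr2:208400001-208500000 (0.16), chr3:178700001-178800000 (0.13) and chr7:112500001-112600000 (-0.12). Over LaminB1 reads per kb alone, without the control, 3.62% of all bins were higher and 4.09% lower in DKO. By that measure 4 of the 96 bins top in all 4 lists were higher and 0 lower, 24 of the 96 DKO-only bins were higher and 11 of the 63 WT-only bins were lower. LaminB1 reads are the upper part of the ratio that chose these bins, so these counts are a description too.

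Bins were also chosen in replicate 1 of both groups and read in replicate 2, and the reverse. Bins that were top in DKO 1 and not in WT 1 (192 bins) had a median DKO 2 minus WT 2 of 0.08 log2 units in the ratio, 0.04 in LaminB1 reads and -0.04 in control reads. Their LaminB1 reads were higher in DKO 2 than in WT 2 in 144 bins (75%), against 51.6% of all bins. For the 267 bins chosen in replicate 2 and read in replicate 1 this was so in 183 (68.5%), against 52.3% of all bins. Bins that were top in WT 1 and not in DKO 1 (197 bins) had a median of -0.07 in the ratio, -0.03 in LaminB1 reads and 0.05 in control reads. LaminB1 was higher in DKO 2 in 72 of them (36.5%), and in the reverse choice in 46 of 151 (30.5%). Bins that were top in both groups had higher LaminB1 in DKO in 130 of 194 (67%) and in 99 of 142 (69.7%). Their median LaminB1 difference was 0.03 log2 units in either choice, so higher LaminB1 in DKO was not particular to the bins chosen in DKO only. The LaminB1 reads come from libraries that the choice did not use; the control reads do not, since the replicates share them. With 1 library a group this comparison has no test.

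**Figure D3:**
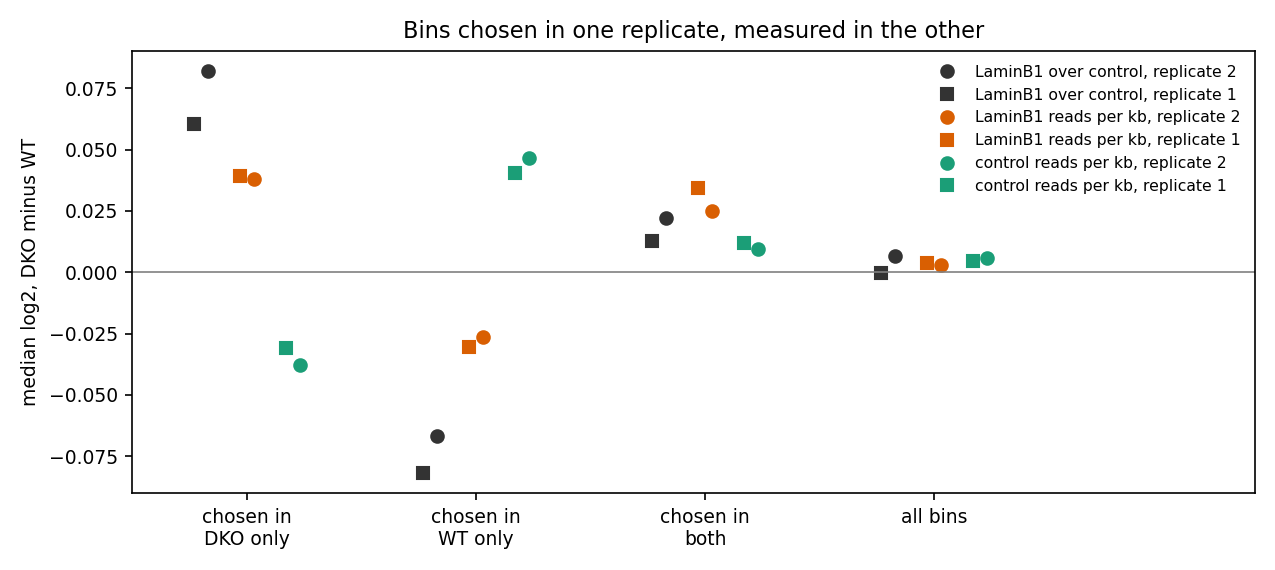
Median log2 difference, DKO minus WT (vertical axis), in the ratio, the LaminB1 reads and the control reads of 100 kb bins chosen as top in one replicate and read in the other. LaminB1 reads differed by 0.04 in the bins chosen in DKO only and by -0.03 in those chosen in WT only, where control reads differed in the opposite direction. In the bins chosen in both groups LaminB1 reads differed by 0.03.

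Top regions were concentrated on a few chromosomes. Chromosomes 2 to 7 held 80.4% of the top regions of DKO 1 and 78.4% of DKO 2, against 69.5% of WT 1 and 69.8% of WT 2, where they held 52.7, 51.4, 51.1 and 50.9% of the regions ranked. On chromosome 2, 6.67 and 6.2% of the ranked regions were top in the DKO lists and 9.65 and 9.56% in the WT lists. On chromosome 7 the share was 9.55 and 10.6% in the DKO lists and 7.33 and 6.59% in the WT lists. Chromosomes 2, 4, 5 and 7 were above 5% in all 4 lists, and 14 chromosomes were below it in all 4. Chromosomes 17, 19, 21 and 22 held 0 top regions in every list. On chromosome 17, 77 and 98 regions were ranked in the DKO lists and 70 and 71 in the WT lists. Fewer were ranked on chromosome 19 (21 and 28 in DKO, 8 and 6 in WT) and chromosome 21 (35 and 48, 30 and 23). Chromosome 22 had 18 and 16 in the DKO lists and 6 and 4 in the WT lists. At 5%, few or none would be top on chromosomes 19, 21 and 22. On chromosome 8 the share was 0.721 and 0.447% in the DKO lists and 0.45 and 0.216% in the WT lists, and on chromosome 10 it was 1.1 and 1.14% in the DKO lists and 1.76 and 1.29% in the WT lists.

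**Figure D4:**
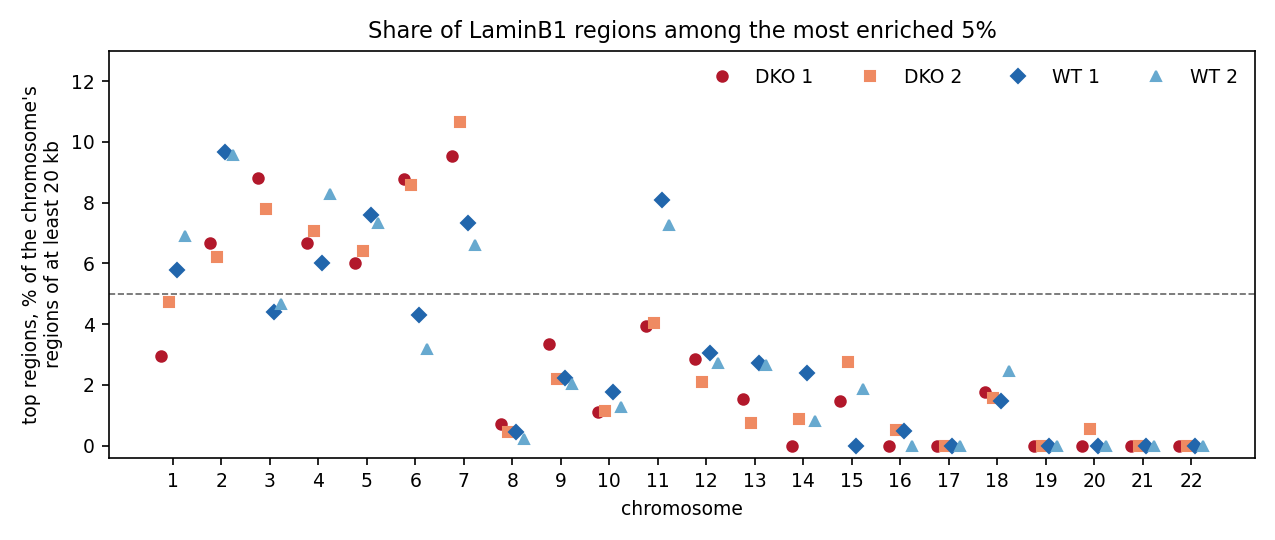
Top regions as a percentage of all regions of at least 20 kb on each chromosome (vertical axis), with 1 marker per library; the dashed line is the 5% that the rule takes over all chromosomes. Chromosomes 3 and 6 have DKO markers above and WT markers below the line, and chromosomes 1 and 11 have the reverse.

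The chromosomes also differed in control reads. In bins covered by regions of all 4 lists, log2 control reads per kb on chromosome 8, relative to the list's median bin, were 0.51 and 0.50 in the DKO lists and 0.47 and 0.46 in the WT lists, and LaminB1 reads were 0.30 and 0.31 in the DKO lists and 0.26 and 0.25 in the WT lists. Control reads were likewise above the median on chromosome 10 (0.48 and 0.47 in DKO, 0.45 and 0.46 in WT), chromosome 16 (0.56 and 0.59 in DKO, 0.49 and 0.48 in WT) and chromosome 17 (0.55 and 0.51 in DKO, 0.51 and 0.52 in WT). On chromosome 20 they were 0.04 and 0.05 in the DKO lists, against 0.55 and 0.54 in the WT lists. The part of these control levels in the chromosome shares was not tested. When the median ratio of each chromosome was subtracted before ranking, 388 of 475 and 388 of 485 top regions in the DKO lists stayed in the list's top 5%. In the WT lists 341 of 423 and 293 of 387 did so. Between the groups, 3 chromosomes had both DKO shares above both WT shares and 6 had both below. Each of these gave an exact two-sided permutation p of 0.333, the smallest this design allows, and the smallest Benjamini-Hochberg adjusted p over the 22 chromosomes was 0.815.

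Top regions lay deeper inside lamina-rich surroundings than other regions and touched longer genes. Of the 500 kb on each side of a top region, 72.6% (median) lay inside regions in DKO 1 and 70% in DKO 2, against 73.4% in WT 1 and 72.3% in WT 2. For the other regions this was 45.8% in both DKO lists, and 48.3 and 50.2% in the WT lists. The mean difference was 24.6 percentage points ± 1.96 (SD, n = 4 lists). Protein-coding genes touched by top regions had a median length of 210 kb in DKO 1 and 196 kb in DKO 2, against 179 kb in WT 1 and 178 kb in WT 2. Those touched by other regions had a median of 104, 95.8, 91.8 and 110 kb in the same lists, a mean difference of 90.3 kb ± 16.9 (SD, n = 4 lists). Each of these differences had the same sign in 4 of 4 lists, and the exact two-sided sign permutation p was 0.125, the smallest that 4 lists allow. Adjusted over the 13 measures compared it was 0.232. None of these measures was used by the rule, but width goes with several of them, since top regions are wider.

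A smaller share of top regions was free of protein-coding genes. This was 48.8 and 52% in the DKO lists and 47.5 and 48.3% in the WT lists, and for other regions 57.4 and 56.8% in the DKO lists and 56 and 56.6% in the WT lists. The mean difference was -7.53 percentage points ± 1.78 (SD, n = 4 lists), lower in 4 of 4 lists, with an exact sign permutation p of 0.125. Among regions of 20 to 50 kb it was -2.34 ± 4.96 (SD, n = 4 lists), lower in 3 of 4 lists, and among wider regions -9.4, lower in 4 of 4. Starts of protein-coding genes came to 1.38 and 1.55 per Mb of top regions in the DKO lists and 1.6 and 1.86 in the WT lists. In other regions they came to 1.4 and 1.48 per Mb in the DKO lists and 1.56 and 1.41 in the WT lists, and outside all regions to 6.84 per Mb. Starts of long non-coding RNAs were fewer, at 2.3 and 2.44 per Mb in the DKO lists and 2.39 and 2.44 in the WT lists, against 2.93 and 2.92 in other regions of the DKO lists and 3.13 and 3.08 in those of the WT lists.

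Promoters inside top regions had a median G and C content of 45.3% in DKO 1 and 46% in DKO 2, against 43.8% in WT 1 and 43.3% in WT 2. Promoters inside other regions had 48 and 48.8% in the DKO lists and 50.3 and 50.3% in the WT lists, a mean difference of -4.75 percentage points ± 2.32 (SD, n = 4 lists; exact sign permutation p = 0.125). The 16 promoters that were top in all 4 lists had a median of 42.5% and 2.5 CG dinucleotides, and 4 of them (25%) held TATAAA. The same letters occurred in 19 and 22.4% of promoters in top regions of the DKO lists and 15.7 and 21.3% of those of the WT lists, against 19.8 and 20.8% in other regions of the DKO lists and 18.3 and 16.3% in those of the WT lists. The share was higher in top regions in 2 lists and lower in 2.

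**Figure D5:**
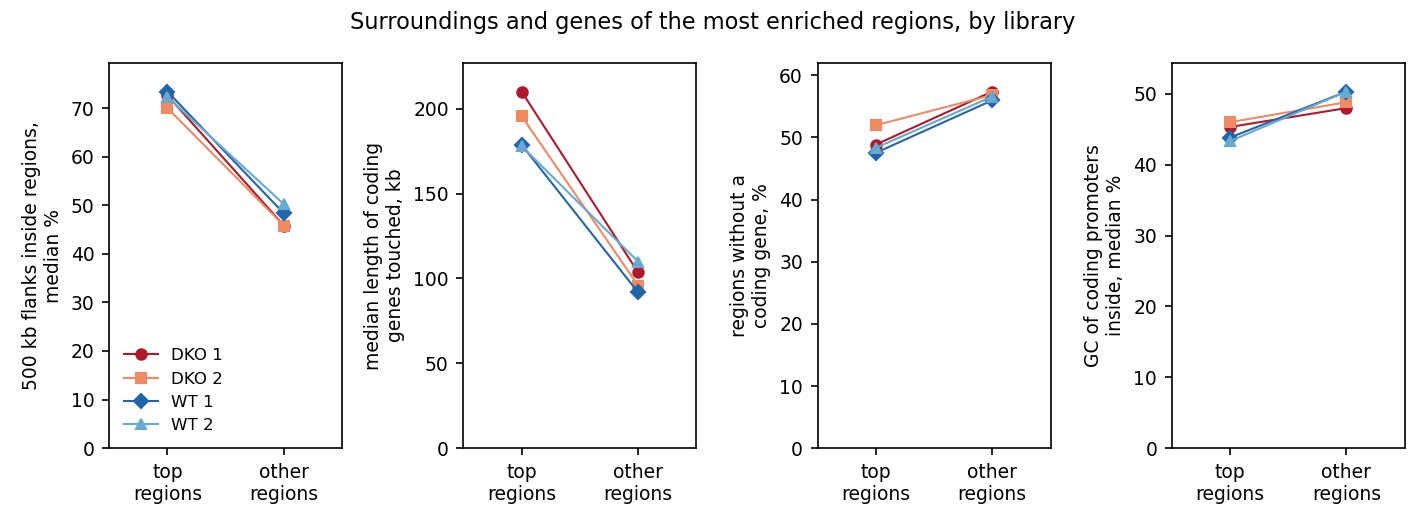
The 4 measures of top regions and of the other regions of at least 20 kb, with 1 line per library: the share of the 500 kb flanks inside regions (median, percent), the median length of protein-coding genes touched (kb), the share of regions free of a protein-coding gene (percent) and the median G and C content of promoters inside (percent). The first 2 are higher and the last 2 lower in top regions in all 4 lists.

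Few genes lay in top regions. Of 19126 protein-coding genes, 417 were touched, 183 (0.957%) had at least 50% of their body in top regions of a list, and 21 had this in all 4 lists. Of the 2071 genes that lay at least 50% inside regions of a list, the 183 make up 8.84%. No test was run on single genes or on gene lists, and the lists below are read beside these shares. Of the 21 genes, 9 were on chromosome 5, 5 on chromosome 7, 3 each on chromosomes 2 and 3, and 1 on chromosome 11. Wholly inside in all 4 lists were 9: MARCOL, SPINK6, SPINK7 and SPINK9 on chromosome 5, RNF133, RNF148 and TAS2R16 on chromosome 7, and LOC124909461 and LOC107986012 on chromosome 3. The SPINK genes form 1 cluster; its other members among the 21 were SPINK5, whose product inhibits proteases in the skin (100 and 72.2% in the DKO lists, 100% in both WT lists), and SPINK13 (87.4 and 100% in DKO, 100 and 77.1% in WT). Beside the cluster, JAKMIP2 lay inside to 100 and 97% in the DKO lists and 98 and 89.1% in the WT lists. Further genes were SLC13A1, a sulfate transporter gene of the kidney (95.4 and 76.9% in DKO, 100% in both WT), PPP1R3A, which codes for a muscle subunit that brings protein phosphatase 1 to glycogen (100% in both DKO, 90.5 and 78.2% in WT), and TRPC6, a cation channel gene (95.9 and 90.6% in DKO, 83.8 and 80% in WT). CPS1 lay inside to 95 and 98.4% in the DKO lists and 50.7 and 72% in the WT lists. The SPINK cluster and the genes named with it here were described after their values were seen.

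Among 24 synaptic adhesion genes, 8 were touched and 1 lay at least 50% inside in a list, of 8 at least 50% inside regions. NLGN1 lay in top regions to 85 and 99.3% in the DKO lists and 45 and 56.8% in the WT lists, and DLG2, a postsynaptic scaffold gene, to 28.9 and 28.2% in the DKO lists and 34.5 and 8.42% in the WT lists. Among 25 glutamate receptor genes, 3 lay at least 50% inside in a list, of 10 inside regions. The metabotropic receptor gene GRM5 had 50.1 and 52.2% in the DKO lists and 9.62 and 3.56% in the WT lists. GRM8 had 35.6 and 24.8% in the DKO lists and 51.3 and 32.5% in the WT lists. Among 39 sodium and potassium channel genes 4 did so, of 15 inside regions. The sodium channel genes SCN7A (75.3 and 40% in DKO, 78.6 and 75.3% in WT) and SCN9A (0 and 88.5% in DKO, 25.4 and 78% in WT) varied most between the DKO replicates, and the potassium channel gene KCNH7 had 0 and 4.71% in the DKO lists and 61.8 and 60.8% in the WT lists.

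Of 389 olfactory receptor genes 186 lay at least 50% inside regions, and 28 of the 186 inside top regions of a list. Of all protein-coding genes inside regions, 183 of 2071 (8.84%) were inside top regions. The 28 are 7.2% of the 389, where all protein-coding genes had 0.957%. By list, 5 of the 28 were inside in DKO 1 and 4 in DKO 2, against 12 in WT 1 and 16 in WT 2. Of these, 8 were inside in both WT lists and neither DKO list: OR4D5, OR6T1, OR10S1, OR10G4, OR10G6, OR10G7, OR10G8 and OR10G9, neighbours on chromosome 11 that 1 region holds in each WT list. All 8 lay wholly inside regions of the DKO lists too, below the threshold. Of 25 bitter taste receptor genes, 9 of them inside regions, TAS2R16 alone was inside top regions. Of 15 casein and salivary protein genes, 11 of them inside regions, 3 were: SMR3A (100% in both DKO lists, 100 and 0% in the WT lists), SMR3B (100% in both DKO lists, 0% in both WT lists) and OPRPN (90.2 and 82.1% in DKO, 0 and 58.7% in WT). Of 15 long fragile-site genes, 6 of them inside regions, 3 were. PARD3B had 65.4 and 52.4% in the DKO lists and 65.2 and 63.1% in the WT lists, and NAALADL2 had 73.6 and 74.7% in the DKO lists and 0% in both WT lists. The estrogen-related receptor gene ESRRG had 30.1 and 82.9% in the DKO lists and 0% in both WT lists. Regions of any rank covered 94.4 and 95.8% of NAALADL2 in the DKO lists and 33.6 and 30.2% in the WT lists.

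The other gene lists had 0 or 1 gene at least 50% inside top regions. None of the 53 clustered protocadherins was touched, although 30 lay at least 50% inside regions, and none of 21 liver plasma protein genes, of which 13 lay inside regions; few genes would be top among so many at the 8.84% of all genes inside regions. Of 45 defensins, 9 inside regions, 1 was top (DEFB113 at 65.9% in DKO 2), as was 1 of 10 UGT2 glucuronosyltransferases, 3 inside regions (UGT2B11 at 72.1% in DKO 2), and 1 of 497 zinc finger genes, 26 inside regions (ZNF475 at 74.1% in WT 1). GABA-A receptor, contactin, IgLON and axon guidance genes had none at least 50% inside. Of the delta protocadherins, type II cadherins, keratins, cytochromes P450, vomeronasal receptors, histones, ribosomal proteins and proteasome subunits, none was touched in any list. Most of these were outside regions as well: 11 of 149 keratins, 9 of 55 cytochromes P450, 2 of 77 ribosomal proteins, 1 of 13 type II cadherins and none of the others lay at least 50% inside regions.

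Of 19126 protein-coding genes, 183 were at least 50% inside top regions of a list, and 21 of these in all 4 lists. Of the 183, 23 were so in both DKO lists and neither WT list, and 20 in the reverse. The part of counting error in these counts was not tested. Those named were chosen after their values were seen and carry no test. Of the 23, 6 lay on chromosome 3, 5 on chromosome 4 and 5 on chromosome 7. They include TP63, a p53 family transcription factor gene of stratified epithelia (75.3 and 100% in DKO, 8.32 and 0% in WT), FOXP2, a forkhead factor gene (65 and 82.4% in DKO, 22.1 and 25.2% in WT), FGF12 (97.3 and 93.2% in DKO, 47.4 and 28% in WT), HHIP (100 and 96% in DKO, 30.5 and 0% in WT) and HPGD, which codes for a prostaglandin-degrading enzyme (100% in both DKO, 0% in both WT). Among the others were NAALADL2, NKAIN2, MECOM, GRM5, SPATA16, KCNK2, ATP13A4, DKK2, LANCL1, TMEM168, MYL1, ISOC1, OR2T2, FEZF1, SMR3B, CABS1 and SSU72L6. Of the 20 WT genes 11 lay on chromosome 11, the 8 olfactory receptors among them. NPY2R, a neuropeptide Y receptor gene, and GBP6, a guanylate-binding protein gene, were at 0% in both DKO lists and 100% in both WT lists. CTTNBP2 had 0% in both DKO lists and 93.6 and 91.8% in the WT lists. TMEM232 had 0% in both DKO lists and 71.9 and 69.6% in the WT lists. Among the others were KCNH7, EPB41L4A, VWA5A, TRIM77, C11orf87 and GPR85. Most of these genes lay in regions of both groups and differed in rank: HPGD and NPY2R were 100% inside regions in all 4 lists, while TMEM168 was 80.8 and 77.2% inside regions in the DKO lists and 0 and 12.9% in the WT lists.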

How the data were processed

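LaminB1 CUT&RUN libraries of HCT116 cells, 2 DKO and 2 WT, were sequenced as 75-base read pairs, per the labels' protocols. Reads were aligned to hg38 with Bowtie2 2.3.4.3 and handled with Picard, per the submitters' processing notes. Which program called the regions is not given in the sources used here. The 2 IgG libraries were not used as samples of their own. Each list was called per library and holds deposited counts of LaminB1 and of control reads per region, not normalized, with a p-value, an adjusted p-value, a log2 fold and a score, per the file headers. The deposited log2 fold equalled the log2 ratio of the counts plus a constant of -0.07 and -0.08 in the DKO lists and -0.27 and -0.32 in the WT lists, and the score was 100 times that fold, as tested on the values. Only edges and counts were used for the results. The log2 fold and score columns served for that check alone, and the p-value columns entered no result given here.

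Top regions were the highest 5% by log2(LaminB1 reads/control reads) among regions of at least 20 kb on chromosomes 1 to 22, per list. Overlaps were measured in bases. Ratios were averaged over 100 kb bins by covered length, centred on each list's median, and compared with limma 3.58.1 (R 4.3.3, trend, Benjamini-Hochberg 0.05). Count models were not used because regions differ in edges between lists. The limma step was tested on simulated data of 4087 bins: it called 70.5% of bins changed by 0.3 log2 units at the adjusted threshold, and 5.74% of unchanged bins had an unadjusted p under 0.05. Single values were compared by exact permutation. Other steps used Python 3.11.15. Genes and promoters are RefSeq on GRCh38.p14; 15101 of 19126 protein-coding genes had a promoter sequence. A gene counted as inside when at least 50% of its body lay in top regions.

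The members and gene lists were chosen with earlier results of these data known. Named by rule were the 10 longest stretches that were top in all 4 lists and the 5 longest for each group alone. So were the 3 highest and 2 regions on each side of the threshold per list, and the 3 most covered genes of each gene list. The 6 promoters printed came from genes wholly inside top regions of all 4 lists whose promoter also lay there. They were taken by mean ratio over the gene, at most 1 per stretch. Other genes are said to be chosen after their values were seen. Alternatives varied the share taken, the minimum width, the bin size and cover, the centring, the libraries and the gene rule. Region sequence and base composition were not analysed here. Results for a few genes are not reported here.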

Additional observations from a re-analysis of the deposited data

Results flagged for a closer look

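The share of ranked regions that were top crossed the 5% of the whole list in opposite directions in the 2 groups on 4 chromosomes. On chromosome 3 it was 8.82 and 7.8% in the DKO lists and 4.41 and 4.67% in the WT lists, and on chromosome 6 it was 8.79 and 8.59% in the DKO lists and 4.29 and 3.19% in the WT lists. On chromosome 1 it was 2.96 and 4.73% in the DKO lists and 5.77 and 6.9% in the WT lists, and on chromosome 11 it was 3.92 and 4.03% in the DKO lists and 8.09 and 7.26% in the WT lists. The exact two-sided permutation p was 0.333 for each chromosome, the smallest that 2 against 2 libraries allow, so the difference was not tested to any threshold. Median log2 differences, DKO minus WT, over bins of these chromosomes were 0.03 in LaminB1 and -0.02 in control reads on chromosome 3, and -0.02 and 0.01 on chromosome 1. On chromosome 6 the control reads differed by -0.03 and on chromosome 11 by 0.04, while LaminB1 reads differed by 0.00 and 0.01. The part of the control libraries in these shares was not tested.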

How the results depend on the processing

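The agreement within minus across groups (12.1 to 24.4 percentage points) and the DKO excess in covered sequence (3.55 to 14.6 Mb) kept their direction under 13 alternatives each. The gene-free difference (-11.3 to -2.34 percentage points) did so under 16. Among these alternatives, a minimum of 50 control reads left the values unchanged, since every top region had at least 90. Covered sequence also depends on the number of top regions, which the rule sets from list length. The number of bins called by limma (625) was 168 at 10% and 170 at 90% minimum cover, and 125 to 336 with 1 library left out; leaving a group 1 library assumes that it varies like the other group. Without centring 3914 bins were called, nearly all lower in DKO. With a replicate block 1036 were called, but same-numbered libraries did not deviate together (r = 0.0137 over 4087 bins), so the numbers were not taken to pair samples. In alternatives added after seeing the data, LaminB1 reads per kb alone gave 315 bins, and 247 without chromosome 20. The DKO share outside WT regions (3.04%) was 4.66 to 9.14% with 1 list left out and 0.993% at 10 kb from any region. The WT share outside DKO regions (0.663%) was 2.07 to 3.46% with 1 list left out, 0.319% for the top 2.5%, 0.319% for regions of at least 50 kb and 0.208% at 10 kb. The causes, the fewer lists that must agree among them, were not tested. Counting error leaves the membership of most single top regions unresolved, and 1 control library a group limits every comparison of the groups.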

Other observations

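Regions under 20 kb were not ranked, but some were above the list's threshold: 363 of 2914 in DKO 1 (12.5%) and 323 of 2547 in DKO 2 (12.7%), against 264 of 2323 in WT 1 (11.4%) and 632 of 5874 in WT 2 (10.8%). Across 100 kb bins the centred ratio correlated between replicates with r = 0.919 in DKO and r = 0.913 in WT, a description over bins that share the control library of their group. On chromosome 20, LaminB1 reads relative to the median bin were -0.14 and -0.12 log2 units in the DKO lists, against 0.20 and 0.20 in the WT lists, and the ratio was -0.18 and -0.18 in the DKO lists, against -0.34 and -0.34 in the WT lists.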
